A study of Mus musculus with 12 samples.

Results

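Amitriptyline and imipramine are the only 2 compounds of this study that were given at the same dose, 5 µM, for the same time, 48 h, so their arrays form its 1 matched pair. The pair holds 4 of 12 samples, chosen by title and treatment alone: 2 arrays of amitriptyline and 2 of imipramine. The 2 control arrays served only to give the direction in which each drug moved a gene, and the other 6 arrays, of citalopram, duloxetine and mirtazapine, only to estimate the spread between replicates. All samples were primary neuronal cultures prepared from brains of embryos of the outbred ICR (CD-1) mouse stock. Drug was added on day in vitro 3 and RNA was collected on day in vitro 5. No source used here states what the control cultures received in place of drug. Nor do the labels state whether the replicates of a group were grown from separate animals or as separate cultures, so every p-value below measures only the spread between these samples, which may be technical.

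Tricyclic antidepressants block the neuronal transporters that take serotonin and noradrenaline back into the cell, and they also bind histamine, muscarinic and α1-adrenergic receptors. Both drugs are lipophilic tertiary amines, a class of cationic amphiphilic compounds known to collect in lysosomes and to disturb lipid breakdown there. They share a 3-ring skeleton and a dimethylaminopropyl side chain, and they differ in how these are joined. Amitriptyline has an all-carbon central ring, to which the chain is attached through a carbon-carbon double bond, whereas imipramine is a dibenzazepine, with a nitrogen in the central ring that carries the chain.

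Transcript levels are given as log2 values, so that a difference of 1 is a 2-fold difference. Of 41345 probe sets, 23521 carry exactly 1 gene symbol and were tested, which together name 22180 genes. A gene with several probe sets is represented by the brightest one. A gene is called dim below where its mean over all 12 arrays lies under 5.72, the 30th percentile of all probe sets, and 17469 genes lie at or above it. Neuronal genes were far above the dim range on each of the 6 arrays of both drugs and control. Tubb3, a neuronal tubulin, lay between 12.43 and 12.55, Snap25, a component of the synaptic release machinery, between 12.62 and 12.73, and Map2, a dendritic microtubule protein, between 12.15 and 12.25. Markers of astrocytes, oligodendrocyte precursors and dividing progenitors were also measured above the dim range.

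No gene separated amitriptyline from imipramine after adjustment for the number of tests. Of 23521 probe sets, 0 (0.0%) passed an adjusted p under 0.05 in limma (Benjamini-Hochberg, lowest adjusted p = 0.59). At an unadjusted p under 0.05 there were 484 probe sets (2.06%), of which 317 (1.35%) were higher under amitriptyline and 167 (0.71%) higher under imipramine. That split moved with the scaling of the arrays: a second quantile normalization gave 239 of 621 higher under amitriptyline, and centring each array on its median gave 250 of 496. No permutation test of these 4 arrays could have reached significance, since the smallest exact two-sided p for 2 arrays against 2 is 0.333. The main test of the pair was the model over all arrays, because the 4 arrays alone leave only 2 residual degrees of freedom. A fit to the 4 tricyclic arrays alone also called 0 probe sets in limma (lowest adjusted p = 0.937), with 1088 at an unadjusted p under 0.05. In data simulated for this comparison over 23521 probe sets, the model over all arrays called 19.4% of 67 probe sets given a change of 0.5. It called 76.1% of 67 given a change of 1 and 93.9% of 66 given a change of 2. The simulated noise was independent, with the same SD in every group, whereas the residual SD of the real groups ran from 0.116 to 0.259. These rates are therefore only a guide for this pair. A p that misses the threshold therefore does not show that both drugs act alike, and the intervals say how large a difference the arrays leave room for. The 95% interval of the difference reached a median of 0.31 log2 units to either side. It lay wholly within 0.5 of 0 for 16582 probe sets (70.5%) and wholly within 1 of 0, a 2-fold difference either way, for 23163 (98.5%). Leaving out any 1 of the 4 tricyclic arrays, which left 1 array in its group, lowered the first share to between 45.2% and 49.1%. The spread behind the main intervals was pooled over all 6 groups, and the residual SD was 0.141 for amitriptyline and 0.144 for imipramine. It was larger for duloxetine (0.259) and mirtazapine (0.22), so pooling tends to widen the main intervals and to raise the main p-values of this pair. In the fit to the 4 tricyclic arrays alone, 83.5% of intervals lay within 0.5 of 0, a larger share than in the main fit. Among the 17469 genes that were not dim, the interval from all 12 arrays lay within 0.5 of 0 for 78.7%. Their median size of the difference was 0.07. Of these genes 31 differed by more than 0.5, none by more than 1, and the largest difference was 0.81.

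The arrays of both drugs lay about as close to each other as replicate arrays did. The SD of probe set differences was 0.199 between the 2 amitriptyline arrays and 0.203 between the 2 imipramine arrays. Across the drugs it was 0.207, 0.208, 0.201 and 0.185 for the 4 possible pairs, the last of these smaller than either replicate pair. Between an array of either drug and a control array it ranged from 0.195 to 0.237, and between the 2 control arrays it was 0.216.

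**Figure D1:**
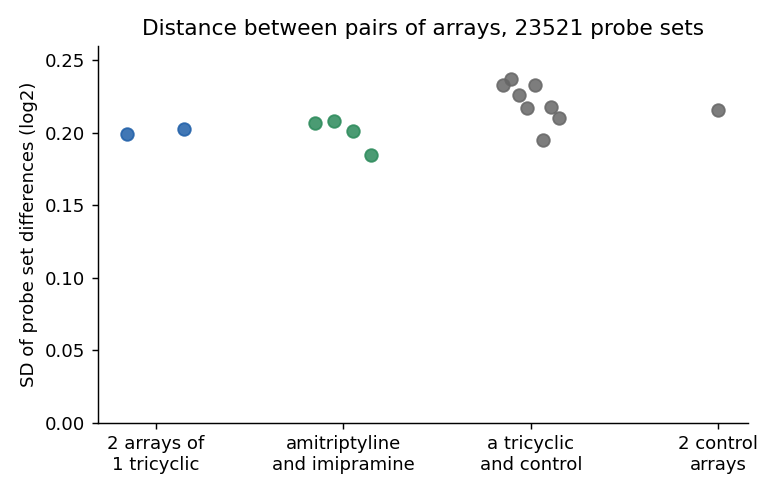
Each point is a pair of arrays, and the vertical axis gives the SD of the log2 differences over 23521 probe sets, starting at 0. The 4 pairs that cross the drugs (0.185 to 0.208) lie beside the replicate pairs of each drug (0.199 and 0.203), and the pairs of a drug with control reach up to 0.237.

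Against control, 7 genes rose with the mean of both drugs, among them inflammatory genes and a heme-degrading stress enzyme. Another 3 genes fell, among them an astrocyte water channel and a Notch target of progenitors. The mean of both drugs against control called 10 of 23521 probe sets (0.0425%) in limma, 7 higher (0.0298%) and 3 lower (0.0128%), with 1230 (5.23%) at an unadjusted p under 0.05. These genes were chosen for their mean response, and the difference between the drugs is a separate contrast that this choice did not use. Taken alone, each drug shared the same 2 control arrays: amitriptyline called 0 probe sets (0.0%) against control, with 1298 (5.52%) at an unadjusted p under 0.05, and imipramine called 3 (0.0128%), with 947 (4.03%). The 3 were Ier3, Ostn and Ptgs2, and the direct tests of the difference for them, given next, did not pass.

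Ptgs2 encodes cyclooxygenase 2, the inducible enzyme of prostaglandin synthesis, and it responded most. Its log2 values were 9.90 and 9.80 under amitriptyline, 10.36 and 9.94 under imipramine, and 7.45 and 8.11 in control. The 4 drug arrays lay above both controls, and both imipramine arrays lay above both amitriptyline arrays. The rise over control was 2.22 (SE 0.22, adjusted p = 0.0221 in limma), while amitriptyline minus imipramine was −0.30, with an interval from −0.87 to 0.27. Ostn, the secreted peptide osteocrin, stood at 7.21 and 7.24 under amitriptyline, 7.45 and 7.42 under imipramine, and 5.62 and 6.18 in control. It rose by 1.43 (SE 0.15, adjusted p = 0.0221 in limma), again with both imipramine arrays above both amitriptyline arrays, and the difference between the drugs was −0.21 (interval −0.59 to 0.17). Ier3, an immediate early gene that modulates cell survival, was at 9.28 and 9.21 under amitriptyline, 9.47 and 9.33 under imipramine, and 8.43 and 8.46 in control. Again imipramine lay above amitriptyline and both lay above control without overlap. The rise of Ier3 was 0.88 (SE 0.08, adjusted p = 0.0221 in limma), and its difference between the drugs had an interval from −0.37 to 0.06. Cxcl2, a neutrophil-attracting chemokine, was at 8.95 and 8.57 under amitriptyline, 9.35 and 8.91 under imipramine, and 7.62 and 7.71 in control. Its arrays overlapped between the drugs, since imipramine replicate 2 lay below amitriptyline replicate 1. It rose by 1.28 (SE 0.16, adjusted p = 0.0396 in limma), and had the largest gap between the drugs among the genes called, −0.37 (interval −0.79 to 0.05).

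The other 3 risers were nearly level between the drugs. Hmox1, heme oxygenase 1, an enzyme of the oxidative stress response, was at 10.52 and 10.53 under amitriptyline, 10.62 and 10.45 under imipramine, and 9.02 and 9.48 in control. The drug arrays interleaved, the rise was 1.28 (SE 0.14, adjusted p = 0.0221 in limma), and the difference between the drugs was −0.01 (interval −0.36 to 0.34). Steap1, a metalloreductase-family membrane protein, was at 7.05 and 6.75 under amitriptyline, 6.96 and 6.82 under imipramine, and 5.83 and 5.96 in control. Steap1 rose by 1.0 (SE 0.12, adjusted p = 0.0394 in limma), the amitriptyline arrays enclosed the imipramine arrays, and the difference between the drugs was 0.01 (interval −0.30 to 0.32). Pla2g2e, a secreted phospholipase A2, was at 8.62 and 8.50, 8.67 and 8.52, and 7.60 and 7.84 in the same order of groups. It rose by 0.86 (adjusted p = 0.0394 in limma) and overlapped between the drugs, with an interval from −0.30 to 0.23.

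Of the 3 genes that fell, the gene lists place Aqp4 with astrocytes, and Hes5 and Tmem100 with progenitors. These lists were chosen with earlier results of these data known. Which cells of these cultures express them was not tested. Aqp4, the water channel of astrocyte endfeet, was at 7.55 and 7.75 under amitriptyline, 7.72 and 7.77 under imipramine, and 8.71 and 8.64 in control. It fell by 0.98 (SE 0.12, adjusted p = 0.0394 in limma), the arrays of both drugs overlapped, and the interval between them ran from −0.41 to 0.22. Hes5, a Notch target that keeps progenitors undifferentiated, was at 8.80 and 8.99 under amitriptyline, 8.84 and 9.01 under imipramine, and 9.72 and 9.76 in control. The arrays of both drugs interleaved, Hes5 fell by 0.83 (SE 0.10, adjusted p = 0.0394 in limma), and the interval of the difference ran from −0.30 to 0.24. The other probe set for Hes5 lay just 0.13 below control. Tmem100, a small membrane protein, was at 5.99 and 5.78 under amitriptyline, 5.69 and 5.98 under imipramine, and 6.72 and 6.89 in control, with the imipramine arrays on either side of amitriptyline replicate 2. It fell by 0.94 (adjusted p = 0.0394 in limma), and the difference between the drugs was 0.05 (interval −0.26 to 0.36). In such bulk samples, fewer cells of a type and less RNA per cell cannot be told apart.

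The 10 calls rest on the design of the fit. With any array of amitriptyline, imipramine or citalopram, or control replicate 1, left out, 0 probe sets were called in limma (933 to 1114 at an unadjusted p under 0.05), against 19 without control replicate 2, 5 without either mirtazapine array and 41 without either duloxetine array. A fit to the 6 arrays of both drugs and control alone also called 0, with 1923 at an unadjusted p under 0.05. Under centring the split of higher against lower was 10 to 1 in place of 7 to 3.

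**Figure D2:**
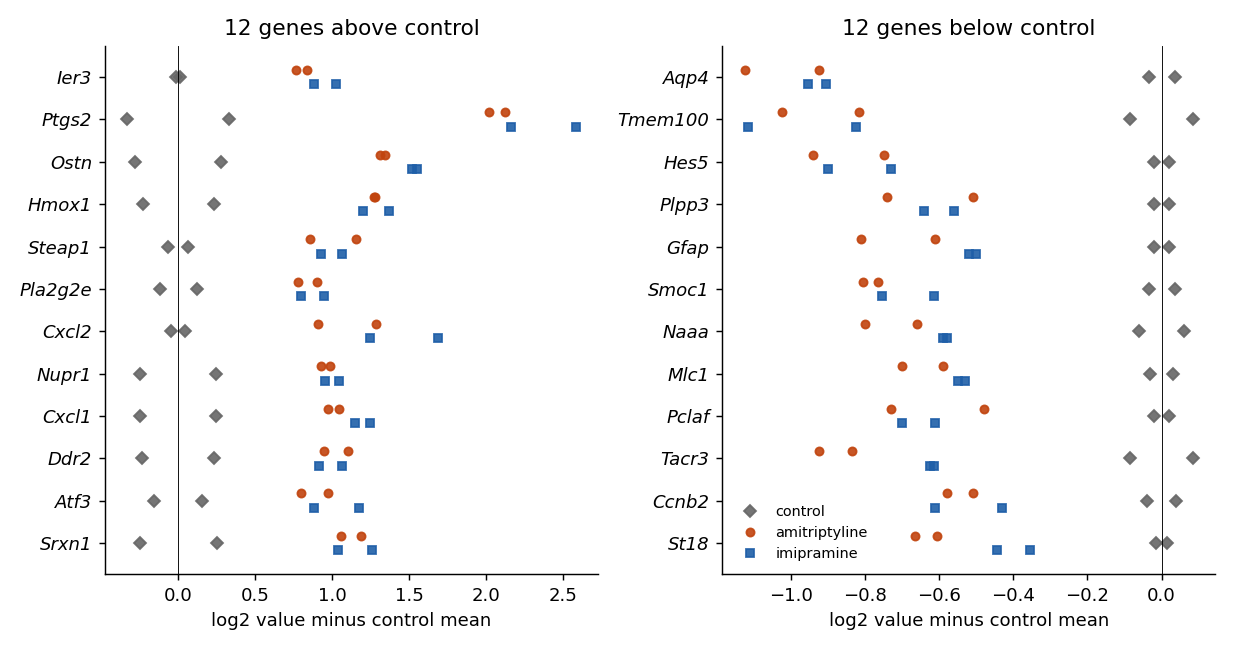
Each row is a gene of lowest p for both drugs against control, 12 above (left) and 12 below (right), and each point is 1 array, plotted as its log2 value minus the control mean. Orange circles (amitriptyline) and blue squares (imipramine) lie side by side for most genes, while the grey control arrays sit around 0, with Ptgs2 the farthest at 2.22 for the mean of both drugs.

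Beyond the called genes, the 50 genes above control and the 50 below it with the lowest p for the mean response were compared between the drugs. Among the 50 above control, the median response was 0.71 under amitriptyline and 0.81 under imipramine, both against the same controls, and imipramine was the higher in 44 of 50. The median difference between the drugs was −0.08, against −0.02 over the 17469 genes that were not dim, and 35 of the 50 intervals lay within 0.5 of 0. The mean level of the 50 genes was 8.61 and 8.63 on the amitriptyline arrays, 8.80 and 8.64 on the imipramine arrays, and 7.68 and 7.97 in control. Imipramine replicate 1 thus stood above the other 3 drug arrays, which lay together. Without that array the median difference was −0.01 and imipramine was higher in 28 of 50. Among the 50 below control, the median response was −0.68 under amitriptyline and −0.58 under imipramine, with imipramine the higher, meaning the less lowered, in 42 of 50. Their mean level was 7.66 and 7.77 under amitriptyline, 7.78 and 7.83 under imipramine, and 8.45 and 8.37 in control, so here amitriptyline replicate 1 stood apart on the low side. The median difference was −0.09 and moved to −0.05 without that array, with imipramine higher in 33 of 50, and to −0.18 without amitriptyline replicate 2.

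**Figure D3:**
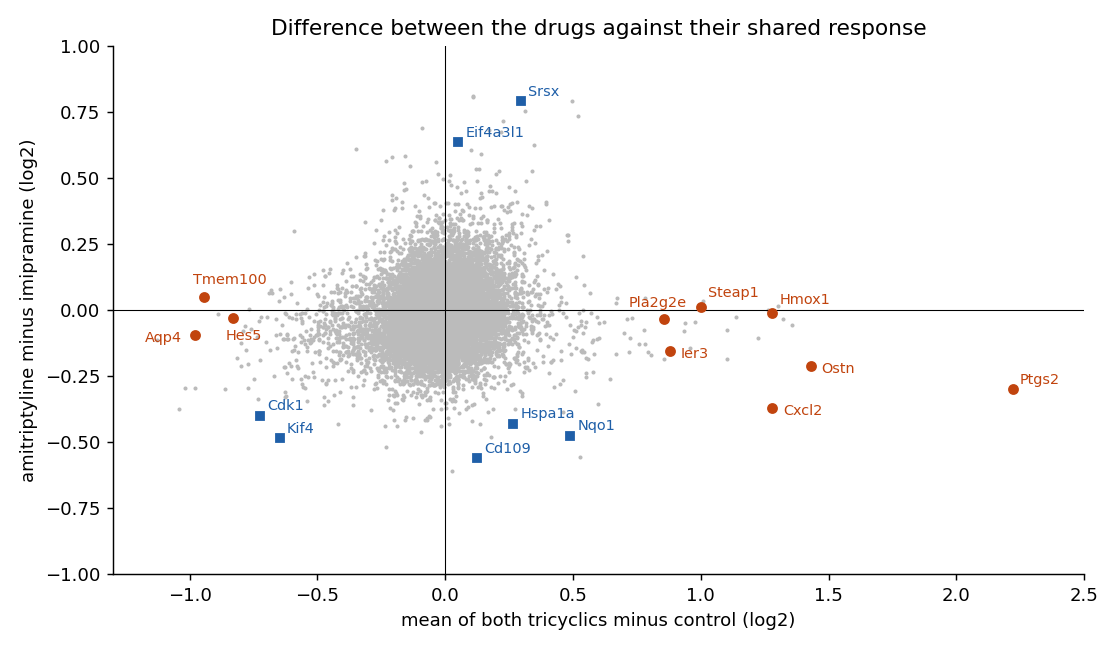
Each point is 1 of 17469 genes, placed by its mean response to both drugs against control (horizontal, log2) and by amitriptyline minus imipramine (vertical, log2). The 10 called genes (orange circles) spread from −0.98 to 2.22 along the response but stay within −0.37 and 0.05 between the drugs, and the blue squares are 7 genes of low unadjusted p between the drugs.

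Genes of the integrated stress response, in which the factor ATF4 switches on amino acid supply and stress genes when translation is slowed, lay above control under both drugs. Of 34 measured members, 33 were above control under amitriptyline and 34 under imipramine, with medians of 0.23 and 0.26, and in 23 members all 4 drug arrays lay above both controls (6.15% of all genes that were not dim). Over all genes that were not dim the medians were −0.02 and −0.005. The mean level of the 34 members was 10.265 and 10.30 under amitriptyline, 10.374 and 10.291 under imipramine, and 9.868 and 10.07 in control. Control replicate 1 thus lay farther below the drug arrays than control replicate 2. Both drugs were set against the same controls, so their counts are not independent. None of the 34 passed against control, and the difference between the drugs had a median of −0.04, which became 0.005 without imipramine replicate 1. Amino acid supply and redox control meet in Slc7a11, the cystine transporter, and 3 stress genes of this list with the ATF4 response element just before their start are shown, to let the shared response be read beside its sequence. The element searched was TGATGCAA, or TTGCATCA on the opposite strand, a composite site of C/EBP and ATF factors. Each line gives the 250 bases before the start of the gene from RefSeq (build GRCm38.p6), 5′ to 3′ along the gene's strand, with the element in capitals. They lie at chr1:191183334-191183583 (Atf3), chr7:126625471-126625720 (Nupr1) and chr3:50443614-50443863 (Slc7a11), all on the minus strand.
Atf3: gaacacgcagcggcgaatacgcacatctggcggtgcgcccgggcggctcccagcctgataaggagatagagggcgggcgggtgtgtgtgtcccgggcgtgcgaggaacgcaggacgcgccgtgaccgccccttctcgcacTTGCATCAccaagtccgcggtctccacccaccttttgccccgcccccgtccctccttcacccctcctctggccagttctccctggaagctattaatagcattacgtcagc
Nupr1: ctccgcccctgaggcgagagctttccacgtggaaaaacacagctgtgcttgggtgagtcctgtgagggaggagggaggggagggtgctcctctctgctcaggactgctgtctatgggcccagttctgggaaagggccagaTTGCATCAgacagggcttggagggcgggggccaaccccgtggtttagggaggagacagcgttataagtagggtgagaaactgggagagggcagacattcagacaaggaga
Slc7a11: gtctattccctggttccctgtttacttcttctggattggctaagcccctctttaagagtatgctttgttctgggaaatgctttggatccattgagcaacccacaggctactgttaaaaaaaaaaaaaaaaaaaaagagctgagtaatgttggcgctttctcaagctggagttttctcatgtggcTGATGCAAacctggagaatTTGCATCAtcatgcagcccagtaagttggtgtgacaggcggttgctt

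The first base of the element lay 110 bases before the start in Atf3, 110 in Nupr1, and 66 and 47 in Slc7a11, which holds it on both strands. It was found in 260 of 32851 mouse windows of this length (0.79%), and in 7 of the 26 measured members of the list that had a window: Atf3, Chac1, Fgf21, Herpud1, Nupr1, Slc7a11 and Vldlr. The list gathers genes of the integrated stress response, so its share of matches is not a result of these data. A match is only a description of the letters, and Vldlr, the very low density lipoprotein receptor, has the element but was only 0.09 above control. Atf3, a stress-induced transcription factor, was at 9.46 and 9.28 under amitriptyline, 9.66 and 9.37 under imipramine, and 8.33 and 8.64 in control. The drugs' arrays overlapped, the response was 0.96 (SE 0.13, adjusted p = 0.0515 in limma, which misses the threshold), and the interval between the drugs ran from −0.49 to 0.20. Nupr1, a stress-induced nuclear protein, was at 8.78 and 8.72 under amitriptyline, 8.84 and 8.75 under imipramine, and 7.55 and 8.04 in control. Its response was 0.98 (adjusted p = 0.0504 in limma) and its difference between the drugs −0.05, with overlapping arrays. Slc7a11 was at 11.49 and 11.53 under amitriptyline, 11.67 and 11.46 under imipramine, and 9.78 and 10.58 in control, where the 2 control arrays differed by more than any 2 drug arrays. Its response was 1.36 (adjusted p = 0.0941 in limma), and the interval between the drugs, from −0.66 to 0.55, was wide. Cth, an enzyme of cysteine synthesis, behaved likewise, at 9.04 and 9.26, 9.20 and 9.10, and 7.38 and 8.39 in the order amitriptyline, imipramine and control. Ddit3, the factor CHOP, was at 9.89 and 9.72, 9.94 and 9.82, and 9.63 and 9.53, a difference of −0.08 between the drugs.

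The drugs' own differences were small, and the genes named next, of low unadjusted p once dim and predicted genes are passed over, are candidates that did not pass, each with an adjusted p of 1.0 in limma. Nqo1 encodes a quinone reductase that is a standard target of the antioxidant factor NRF2. Its values were 6.27 and 6.30 under amitriptyline, 6.85 and 6.67 under imipramine, and 5.90 and 6.17 in control. All 4 drug arrays lay above control, and both imipramine arrays lay above both amitriptyline arrays, by 0.48 on average, or 1.39-fold (interval −0.73 to −0.22 for amitriptyline minus imipramine, unadjusted p = 0.00201). Of all 32 measured genes of the NRF2 and antioxidant list, 27 were higher under imipramine and 5 under amitriptyline, with a median of −0.05, and Nqo1 alone had an unadjusted p under 0.05. Imipramine was also the higher in 57.7% of all genes that were not dim, and in 11 of 13 housekeeping genes. Hmox1 and Steap1, given above, and Srxn1, sulfiredoxin, were members that lay further above control than Nqo1 did, with the arrays of both drugs overlapping. The list was chosen with earlier results of these data known, so its called members are not independent support for it. Srxn1 was at 10.42 and 10.29 under amitriptyline, 10.49 and 10.27 under imipramine, and 8.98 and 9.48 in control, which gave −0.03 between the drugs (interval −0.43 to 0.38). Without imipramine replicate 1 the median of the list was −0.02.

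Heat shock genes leaned the same way. Hspa1a, the inducible HSP70, was at 7.16 and 7.25 under amitriptyline, 7.70 and 7.57 under imipramine, and 6.94 and 7.37 in control. Both imipramine arrays lay above the amitriptyline arrays, which overlapped control, and the difference was −0.43 (interval −0.75 to −0.11, unadjusted p = 0.0136). Its near-identical copy Hspa1b, with which probes can be shared, was at 8.88 and 8.95 under amitriptyline and 9.12 and 9.01 under imipramine, a difference of −0.15. Hspb1, the small heat shock protein HSP27, was at 6.23 and 6.11, and 6.45 and 6.46 (difference −0.29, unadjusted p = 0.0233), but its second probe set differed by 0.24 in the opposite direction. Of 26 measured chaperone genes 20 were higher under imipramine, with a median of −0.08, beside 57.7% and a median of −0.02 over all genes that were not dim.

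Cell cycle genes were lower under both drugs, and slightly lower under amitriptyline. All 45 measured members were below control under imipramine and 44 under amitriptyline, and in 39 all 4 drug arrays lay below both controls (11.8% of all genes that were not dim). None of these members passed against control (lowest adjusted p = 0.076 in limma, for Pclaf). The medians were −0.50 for amitriptyline and −0.41 for imipramine, and the median difference of −0.08 became 0.0 without amitriptyline replicate 1. Cdk1, the kinase that drives mitosis, was at 7.62 and 7.71 under amitriptyline, 8.02 and 8.11 under imipramine, and 8.71 and 8.47 in control. The 3 groups did not overlap, and amitriptyline minus imipramine was −0.40 (interval −0.72 to −0.08, unadjusted p = 0.0206). Kif4, a chromosome-bound motor of mitosis, was at 5.33 and 5.52 under amitriptyline, 5.72 and 6.10 under imipramine, and 6.44 and 6.19 in control. It showed the same order, with a difference of −0.49 (interval −0.84 to −0.13, unadjusted p = 0.0119). Other members of this class did not follow: Mki67, the proliferation antigen, was at 7.96 and 8.25 under amitriptyline and 8.02 and 8.12 under imipramine, and Ccnb2, a mitotic cyclin, at 8.19 and 8.26, and 8.16 and 8.34. Mki67 thus differed by 0.04 and Ccnb2 by −0.03.

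By lowest p, the 12 genes higher under imipramine opened with Cd109, a membrane-anchored protein that restrains TGF-β signalling, at 5.81 and 5.86 under amitriptyline, 6.44 and 6.35 under imipramine, and 6.05 and 5.93 in control. Control lay between the drugs, and the difference was −0.56 (interval −0.85 to −0.27, unadjusted p = 0.00158). Besides Nqo1, Kif4 and Hspa1a, the other 8 were Mettl7a1, Slc16a9, a monocarboxylate transporter family member, Lrrc31, Abca12, Hsd3b3, Nmbr, the neuromedin B receptor, Ppm1d, a phosphatase induced by p53, and Fbxo32, a ubiquitin ligase subunit, with differences between −0.61 and −0.25. The second probe set of Slc16a9 differed by 0.12 the other way. On the other side, the 12 genes higher under amitriptyline began with Eif4a3l1, a relative of the splicing helicase eIF4A3, at 7.68 and 7.47 under amitriptyline, 6.95 and 6.93 under imipramine, and 7.42 and 6.99 in control. Its difference was 0.64 (interval 0.32 to 0.95, unadjusted p = 0.0012), with control replicate 1 just below both amitriptyline arrays and control replicate 2 just above both imipramine arrays. Srsx followed at 6.89 and 6.81, 6.11 and 6.01, and 6.42 and 5.90 in control, a difference of 0.79 (interval 0.40 to 1.19, unadjusted p = 0.00128). The remaining 10 were Speer4c, Fes, a tyrosine kinase, Atp6v1fnb, Nlrp4b, Rgr, Syne1, Rptoros, Dhrs2, Hook2 and Rdh16, a retinol dehydrogenase, with differences between 0.28 and 0.74. Rdh16 lay just above the dim range, at a mean of 5.87, and the second probe set of Nlrp4b, a dim one, differed by only 0.015. Syne1, which encodes the giant nuclear envelope protein nesprin 1, was represented by 59 probe sets, of which 45 were higher under amitriptyline, with a median of 0.10. Of the 59, only 3 had an unadjusted p under 0.05 in limma, and the one that stands for the gene had the highest difference, 0.45. At an unadjusted p under 0.05, 99 of the 17469 genes that were not dim were higher under amitriptyline and 78 (0.447%) under imipramine.

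**Figure D4:**
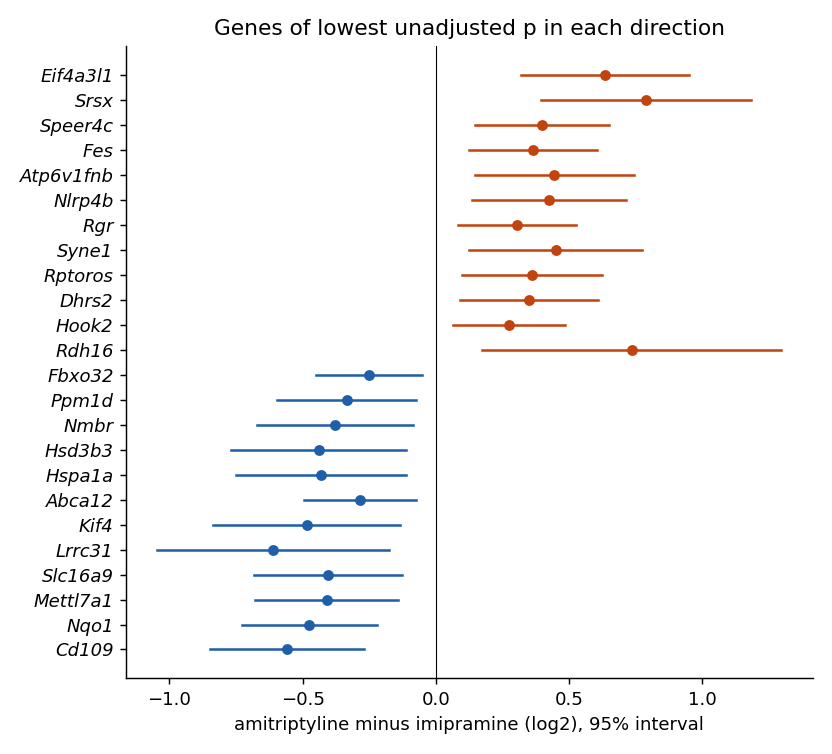
Points give amitriptyline minus imipramine (log2) and lines the 95% interval from limma, for the 12 genes of lowest unadjusted p in each direction, orange where amitriptyline was higher and blue where imipramine was. The intervals shown leave out 0 because the genes were picked by p, and none passed adjustment over 23521 probe sets.

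Over 24 lists with 650 measured genes, 9 members had an unadjusted p under 0.05 between the drugs, and 0 passed adjustment. The share is near the background, which was 2.06% of all probe sets and 1.01% of the genes that were not dim, so the count is not a result about the lists, and the members are given for their values only. All 9 were higher under imipramine: Nqo1, Hspa1a, Hspb1, Cdk1, Kif4, Cck, Ier2, Penk and Lum. Cck, the neuropeptide cholecystokinin, was at 10.39 and 10.23 under amitriptyline, 10.50 and 10.65 under imipramine, and 10.97 and 10.88 in control. Like Cdk1, it fell into 3 groups that did not overlap, with a difference of −0.27 (interval −0.51 to −0.02). Penk, the enkephalin precursor, was at 6.49 and 6.82 under amitriptyline, 7.03 and 6.83 under imipramine, and 7.04 and 7.03 in control. The amitriptyline arrays of Penk were the lowest, although amitriptyline replicate 2 differed from imipramine replicate 2 by only the last decimal. Ier2, an immediate early gene, was at 6.88 and 6.86, 7.39 and 7.07, and 7.04 and 6.85, and there the high value was imipramine replicate 1. With imipramine replicate 1 left out, 4 list members were under 0.05, and with imipramine replicate 2 left out, 14.

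The drug target list held transporters, receptors and channels that tricyclics are known to bind. Of 30 measured, 20 were higher under amitriptyline and 10 under imipramine, with a median of 0.02 that turned to −0.01 when arrays were centred. None of the representing probe sets had an unadjusted p under 0.05, 23 intervals lay within 0.5 of 0, and all 30 lay within 1. Slc6a4, the serotonin transporter, was at 6.13 and 5.79 under amitriptyline, 5.93 and 6.21 under imipramine, and 6.85 and 6.37 in control. The ranges of both drugs overlapped in part and all 4 arrays lay below control, by 0.60 on average (adjusted p = 0.274 in limma, not past the threshold), while the interval between the drugs ran from −0.50 to 0.28. Slc6a2, the noradrenaline transporter, was at 6.13 and 6.05, 6.35 and 6.10, and 6.01 and 6.19, with no order among the groups. Hrh1, the histamine H1 receptor, was at 6.80 and 6.75 under amitriptyline, 6.81 and 6.70 under imipramine, and 6.69 and 6.91 in control, within 0.33 between the drugs at either end of its interval. Chrm1, the muscarinic M1 receptor, was at 8.39 and 8.36, 8.32 and 8.36, and 8.69 and 8.45, but its second, dimmer probe set was lower under amitriptyline by 0.28 (unadjusted p = 0.0196). Htr2a, a serotonin receptor, was at 9.18 and 9.26 under amitriptyline and 9.0 and 9.16 under imipramine, a difference of 0.14. The widest gaps of the list were 0.29 for Htr1d and −0.22 for Drd1, with intervals that both included 0. Ntrk2, which encodes the BDNF receptor TrkB, was at 11.41 and 11.42, 11.35 and 11.41, and 11.32 and 11.46, an interval of −0.19 to 0.26 between the drugs.

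Lysosomal and lipid trafficking genes serve the compartment in which cationic amphiphilic drugs are known to collect. Their median difference from control was 0.01 under amitriptyline and 0.07 under imipramine over 36 genes. Imipramine was the higher in 31 and amitriptyline in 4, with a median difference of −0.06. Over all genes that were not dim, imipramine was the higher in 57.7%, with a median difference of −0.02. No member had an unadjusted p under 0.05 between the drugs. Smpd1, acid sphingomyelinase, which tricyclics inhibit as an enzyme, was at 10.46 and 10.63 under amitriptyline, 10.57 and 10.61 under imipramine, and 10.45 and 10.70 in control. Its drug arrays and controls interleaved, and the interval between the drugs was −0.31 to 0.22. Lpl, lipoprotein lipase, was at 9.43 and 9.40 under amitriptyline, 9.77 and 9.56 under imipramine, and 10.22 and 9.96 in control, a difference of −0.25 (unadjusted p = 0.0744). The second probe set of Lpl, just above the dim range, differed by −0.43 with an unadjusted p under 0.05. Sterol and fatty acid synthesis genes leaned to amitriptyline, in 19 of 28, with medians of 0.18 and 0.12 over control. Their mean level was 10.65 and 10.72 under amitriptyline, 10.65 and 10.66 under imipramine, and 10.40 and 10.68 in control, so control replicate 1 alone lay below the drug arrays. The lean of 0.03 between the drugs turned to −0.01 when arrays were centred. Lss, lanosterol synthase, was at 9.94 and 9.88, 9.67 and 9.76, and 9.39 and 9.62 in control, a difference of 0.20 (interval −0.07 to 0.46). Oxidative phosphorylation genes were higher under imipramine in 33 of 43, with a median of −0.05, and 41 of these 43 intervals lay within 0.5 of 0.

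Of the other cell types, the lists of astrocytes, the oligodendrocyte lineage and progenitors lay below control under both drugs. They held 1, 0 and 2 members called against control in limma (Aqp4, then Hes5 and Tmem100), beside 0.0425% of all probe sets. All the lists were chosen with earlier results of these data known, so these calls are not independent support for a list. The microglia, endothelial and fibroblast lists had medians within 0.08 of control under each drug. The astrocyte list lay below control by a median of 0.25 under amitriptyline and 0.20 under imipramine, with 20 of 22 members below control under each, and its mean level was 9.08 and 9.15, 9.15 and 9.16, and 9.36 and 9.43 on the arrays of amitriptyline, imipramine and control. Of its defining members, Gfap was at 8.06 and 8.26, 8.35 and 8.37, and 8.89 and 8.85, whereas Slc1a3, the glial glutamate transporter, lay between 10.99 and 11.27 on all 6 arrays, both ends of that range being control. Gfap differed by −0.20 between the drugs (interval −0.43 to 0.03), and Slc1a3 by −0.04. The oligodendrocyte lineage list was below control by medians of 0.28 and 0.25, with a mean level of 7.22 and 7.23 under amitriptyline, 7.26 and 7.27 under imipramine, and 7.37 and 7.70 in control. Most of that gap thus came from control replicate 2. In 8 of 17 members all 4 drug arrays lay below both controls (11.8% of all genes that were not dim). Olig1, a lineage factor, was among these 8, at 9.82 and 9.95, 9.92 and 10.23, and 10.52 and 10.89. Gpr17, a receptor of oligodendrocyte precursors, was at 7.21 and 7.23, 7.18 and 7.29, and 7.25 and 8.34, so that control replicate 2 alone stood apart. The radial glia and progenitor list was below by 0.20 and 0.15. The part of these shifts in cell type markers in the other differences was not tested. Neuronal identity genes were split, 17 higher under amitriptyline and 21 under imipramine, with a median of −0.01. Microglia and macrophage markers leaned to amitriptyline in 11 of 19 (median 0.06), and this lean turned to −0.03 without imipramine replicate 2. Synapse and receptor genes did so in 21 of 33 (median 0.02), which turned to −0.02 when arrays were centred. Endothelial and mural markers were higher under imipramine in 15 of 22, fibroblast and meningeal markers in 11 of 20, interferon genes in 13 of 25, glycolysis and hypoxia genes in 14 of 24, and chromatin enzymes in 22 of 43. Inflammation and early response genes leaned to imipramine in 18 of 23 (median −0.08). That list, like the others, was chosen with earlier results of these data known, and it holds 6 of the 10 genes called against control, Cxcl2, Ptgs2 and Ostn among them. Activity-induced and neurotrophic genes leaned to imipramine in 32 of 46 (median −0.06). Among them was Fos, at 7.71 and 7.59, 8.11 and 7.83, and 8.45 and 7.50, whose control arrays spanned all 4 drug arrays.

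The genes as a whole leaned to imipramine too. Imipramine was the higher in 53.6% of all probe sets tested, in 10077 of the 17469 genes that were not dim (57.7%). Its arrays lay above those of amitriptyline without overlap in 3553 of those genes (20.3%), against 2167 (12.4%) the other way. The lean rested on single arrays: the share of all probe sets was 50.6% without imipramine replicate 1 and 50.9% without amitriptyline replicate 1. Probe sets under the 30th percentile went the other way, 2953 higher under amitriptyline and 2047 under imipramine. Even the 13 housekeeping genes were higher under imipramine in 11, with a median of −0.06, while Actb and Gapdh differed by 0.05 and 0.02. Under centring the median of all probe sets moved from −0.01 to −0.05, so the lean of a list is relative to a baseline that is itself set by the scaling.

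**Figure D5:**
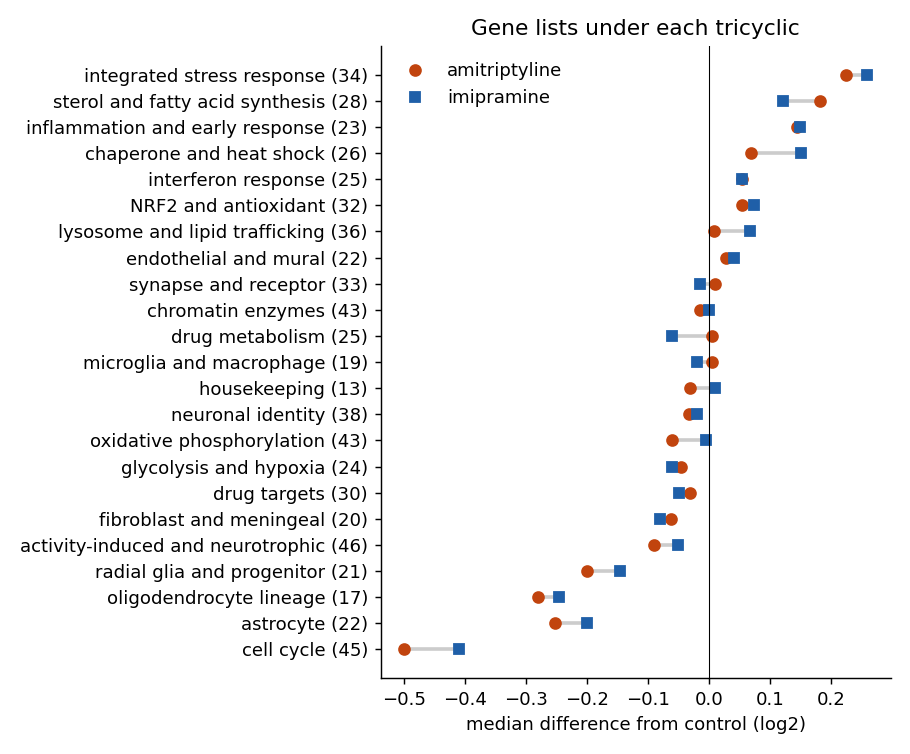
Each row is a gene list with its number of measured genes in brackets, and the points give the median difference from control (log2) over its genes, orange circles for amitriptyline and blue squares for imipramine, joined by a grey line. Cell cycle genes lie farthest below control (−0.50 and −0.41) and integrated stress response genes farthest above (0.23 and 0.26), and the erythroid list, with 3 measured genes, is not drawn.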

How the data were processed

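RNA of 12 samples, 2 for each of 6 groups, was measured on whole-transcript Affymetrix arrays. The deposited values are log2 values rounded to 2 decimals, which the authors made in Affymetrix Expression Console by RMA, which corrects background, quantile-normalizes and summarises probes, per the submitters' processing notes. Tool versions and the genome build were not given in the sources used here. RMA values carry no counts, so depth cannot be stated and the number of arrays limits the precision. Genes were named from the platform annotation: 23521 probe sets had 1 symbol, 1814 several and 16010 none, and 99.2% of the first matched the GRCm38.p6 gene table by gene number.

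All 12 arrays entered 1 model of 6 groups fitted by limma 3.58.1 under R 4.3.3 (functions lmFit and eBayes, 6 residual and 3.68 prior degrees of freedom), without a replicate block. All tests were two-sided. The contrasts were amitriptyline minus imipramine, the mean of both minus control, which is orthogonal to the first, and each drug minus control. The Benjamini-Hochberg adjustment ran over 23521 probe sets, and 1 pair of compounds was compared. Named genes are the 12 of lowest p in each direction of the first 2 contrasts among genes that were not dim, passing over predicted genes, olfactory and vomeronasal receptors and small RNAs. Also named are list members with an unadjusted p under 0.05 or at the ends of a list, and a fixed set. Cth, Vldlr, Hspa1b, Slc1a3, Olig1 and the neuronal markers were added for their roles, with their values seen. The pair, the lists and the named genes were chosen with earlier results of these data known. Lists are described by counts and medians with no test. Of 727 listed genes, 77 are not analysed here. The model was tested on simulated data. Residual SD was 0.259 for duloxetine and 0.22 for mirtazapine, whose replicates 2 stand apart, and 0.116 to 0.153 for the other groups. Alternatives were other sets of arrays, filters, scalings, eBayes settings, array weights, a replicate block and each array left out, where a lone array was assumed to vary like those of other groups. The figures used matplotlib 3.10.9 under Python 3.11.15.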

Additional observations from a re-analysis of the deposited data

How the results depend on the processing

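Amitriptyline against imipramine called 0 probe sets under all 25 alternatives, with a lowest adjusted p of 0.0571 in limma, reached with array weights, and 166 to 1220 probe sets at an unadjusted p under 0.05. The share of intervals within 0.5 of 0 was 69.1 to 85.3% under the other settings and 45.2 to 78.8% with 1 array left out. The number called for both drugs against control, 10, depended most on the setting: 0 with only the 6 arrays of the tricyclics and control, 65 without both arrays that stand apart, 33 and 98 with filters at the 30th and 50th percentile, 66 with 1 probe set per gene together with the filter at the 30th percentile, 76 with a trend and robust eBayes, 162 with array weights, 24 after a second quantile normalization, and 0 to 41 with 1 array left out. List members with an unadjusted p under 0.05 between the drugs numbered 14 with the 6 arrays, 19 with the 4 tricyclic arrays, 18 without both arrays that stand apart, 21 with array weights and 4 to 14 with 1 array left out. The median difference between the drugs ranged from −0.16 to −0.01 among the 50 genes above control and from −0.18 to −0.04 among the 50 below it with 1 array left out.

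The replicate numbers were not shown to pair the samples: deviations of same-numbered arrays correlated at 0.08 between amitriptyline and imipramine, 0.07 between amitriptyline and control and −0.15 between imipramine and control. Among the pairs with other groups the correlation ran from −0.34 (amitriptyline and mirtazapine) to 0.64 (duloxetine and mirtazapine). With the replicate block in the fit, 3 probe sets were called for both drugs against control and 0 between the drugs. Added after seeing the data, the block with only the 6 arrays gave 0 calls and 14 list members under 0.05, and with only the 4 tricyclic arrays 19 list members. The cause of these changes was not tested.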

Other observations

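Dim probe sets behaved differently from bright ones in the comparison of both drugs. In the dimmest of 5 equal bins by mean level (1.96 to 5.64), 265 probe sets (5.63%) had an unadjusted p under 0.05, and 193 of the 265 were higher under amitriptyline, with a median difference of 0.04 over the bin. The share fell through 2.38%, 1.28% and 0.637% to 0.362% in the brightest bin, where the median difference was −0.03. The lower quartile of all values was 5.50 on amitriptyline replicate 1 and 5.43 on amitriptyline replicate 2, against 5.39 and 5.41 on the imipramine arrays and 5.42 and 5.39 on the control arrays. Its part in the excess of dim probe sets was not tested.

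Among genes of drug handling, of which 12 were higher under amitriptyline and 13 under imipramine, the paralogous efflux pumps Abcb1a and Abcb1b, which both encode P-glycoprotein, leaned in opposite directions. Abcb1a was at 6.93 and 6.69 under amitriptyline, 6.55 and 6.60 under imipramine, and 6.67 and 6.92 in control. Abcb1b was at 5.74 and 5.85, 5.87 and 6.23, and 5.50 and 5.96 in the same order. Both intervals included 0 (−0.06 to 0.53 and −0.72 to 0.21), and whether probes of these paralogs share transcripts could not be checked.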
